A study of Mus musculus with 12 samples.

Results

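Small RNA of the gastrocnemius, the large calf muscle, was sequenced in 12 male C57BL/6 mice, 6 young animals of 6 months and 6 aged animals of 24 months, with 1 library per animal and no treatment or modified allele in either group. The miRNAs described here are the late-numbered entries of miRBase, the registry that gives each new miRNA the next free number: mouse miRNAs with a number of 4 digits that were above 0 in at least 3 of the 12 libraries. The numbers 1193, 1197, 3065, 3071, 3072, 3107 and 3544 were left out. Of 1900 mature miRNAs in the table, 1046 carried a late number, 319 of these were above 0 in at least 1 library, and 128 met the rule. The members were therefore chosen by being read in these libraries, so their presence is a description and not a finding. For comparison, 438 miRNAs with earlier numbers, or with none, were above 0 in at least 3 libraries.

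A miRNA is cut from a hairpin transcript and gives up to a pair of mature strands, named 5p and 3p by the arm they come from. The canonical route uses Drosha in the nucleus and Dicer in the cytoplasm, and the strand that stays in Argonaute finds its targets through the seed, the short stretch after its first base. Some hairpins take other routes. A mirtron is a short intron whose spliced and debranched lariat folds into a hairpin without Drosha, so that its ends are splice sites. Other hairpins lie in small nucleolar RNAs (snoRNAs) or in small Cajal body RNAs (scaRNAs), which guide the chemical modification of ribosomal and spliceosomal RNA. The well known miRNAs of muscle, such as miR-1a and miR-133a, were named early. Entries with late numbers were mostly added from deep sequencing.

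The mature sequences on which the results turn are shown 5′ to 3′, from the RefSeq annotation of GRCm38.p6, with the seed (bases 2 to 8) in capitals. A mature sequence was found in that annotation for 117 of the 128 members. The first set shows the most abundant member, miR-3074-5p, and the strand of miR-24 that lies opposite to it, with the reverse complement of the latter in lower case, and then the other arm of the same hairpin with its opposite strand.
miR-3074-5p: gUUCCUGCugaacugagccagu
miR-24-3p: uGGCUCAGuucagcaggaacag
reverse complement of miR-24-3p: cuguuccugcugaacugagcca
miR-3074-2-3p: uGUUUCAGcucaguaggcac
miR-24-2-5p: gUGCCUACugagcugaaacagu
The second set shows abundant members that lie in scaRNAs or snoRNAs, among them the near-identical pair of miR-1843, and miR-3084-3p, which had the smallest p-value of all members between the ages.
miR-1843a-5p: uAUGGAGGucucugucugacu
miR-1843b-5p: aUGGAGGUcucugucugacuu
miR-1839-5p: aAGGUAGAuagaacaggucuug
miR-3084-3p: uUCUGCCAgucuccuucagac
The third set shows 4 members from outside annotated genes that follow miR-3084-3p in the order of p-values, and miR-1963, which lies in an intron of the muscle gene Ryr1.
miR-6236: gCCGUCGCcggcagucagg
miR-6406: cGCGACCUcaggcugacucaug
miR-3968: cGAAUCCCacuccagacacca
miR-5126: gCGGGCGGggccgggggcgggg
miR-1963: uGGGACGAgaucaugaggccuuc

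The late-numbered miRNAs held a small and uneven part of the small RNA. Levels are in FPKM, fragments divided by mature length and by the reads of the library, as the authors computed them, so levels of different miRNAs are compared per length. Together the members made up 0.182% ± 0.029 of the summed FPKM in young and 0.181% ± 0.0164 in aged muscle (SD, n = 6 libraries each), and single libraries ranged from 0.131% to 0.216%. The most abundant member alone held 31.9% of the members' summed mean FPKM, the first 10 held 82.4% and the first 20 held 91.1%. The median of the members' mean levels was 43.3 FPKM, against 258.5 FPKM for the earlier-numbered miRNAs. Of the members, 11 averaged at least 1000 FPKM, 30 averaged 100 to 1000 FPKM and 87 averaged less.

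**Figure D1:**
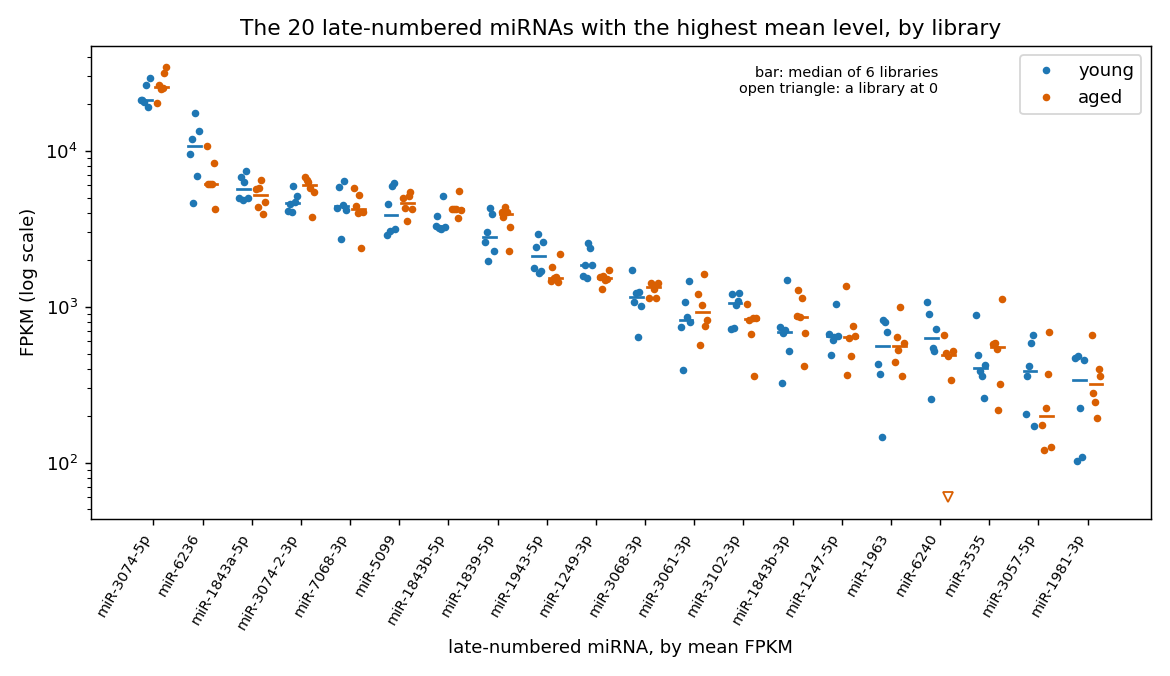
FPKM (log scale) of the 20 late-numbered miRNAs with the highest mean level in 6 young and 6 aged libraries, with a point for each library above 0, a bar at the median of each group and an open triangle where a library was at 0. The mean levels run from 25027 FPKM for miR-3074-5p to 330.9 FPKM for miR-1981-3p, and the young and aged points of each miRNA overlap.

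The most abundant member could not be told apart from an earlier-numbered miRNA. miR-3074-5p is annotated on the minus strand of chromosomes 8 and 13, directly opposite the hairpins of miR-24, a widely expressed miRNA whose guide strand is miR-24-3p. On chr8:84208873-84208894 (mm10, minus strand) it shared 20 bases with the position of miR-24-3p on the plus strand. Its level was 19182, 21111 and 29132 FPKM at the lowest, median and highest young library and 20392, 25848 and 34283 FPKM in aged libraries. These values were those of miR-24-3p in 12 of 12 libraries, with a mean of 25027 FPKM for both. As the printed sequences show, the strands are reverse complements of each other over the shared bases, and it is not stated whether the reads were counted by strand.

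The other arm of that hairpin behaved in the same way. miR-3074-2-3p averaged 5254 FPKM and miR-24-2-5p 4761 FPKM, and their log2 difference was 0.14 with an SD of 0.005 over the 12 libraries. A difference of 0.14 is what equal read counts give for mature sequences of 20 and 22 nucleotides, since FPKM divides by length less 1 in this table. miR-3074-1-3p, the matching arm of the copy on chromosome 13, averaged 262.1 FPKM, against 240.9 FPKM for miR-24-1-5p. Both were above 0 in the same libraries, 10 of 12. The arms of miR-5615, which has a pair of hairpins on opposite strands of chromosome 10, had identical values of at most 1 read in a library. Without the members whose values followed those of miR-24, the late-numbered share fell to 0.117% ± 0.0229 in young and 0.106% ± 0.0167 in aged muscle (SD, n = 6 each).

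Members that lie in snoRNAs and scaRNAs were the next part. In the GENCODE and RefSeq annotations, 17 of the 128 members (13.3%) lay in a snoRNA or scaRNA gene, against 0.913% of the earlier-numbered miRNAs, given as a description without a test. They held 21.2% of the members' summed mean FPKM, and their median level was 196 FPKM. The mature sequence of 16 of them was found base for base in 11 snoRNA or scaRNA transcripts. The scaRNAs were Scarna3a and Scarna3b (miR-1843b and miR-1843a), the host of miR-1839, Scarna13 (miR-3069) and Gm26083 (miR-6516). The snoRNAs were the host of miR-3068, Snora19 and Gm23658 (miR-3084), Snord33 (miR-5121), Snora34 (miR-1291) and Gm24148 (miR-3535), the last in the nucleolin gene Ncl.

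The highest of them were the 5p arms of miR-1843. miR-1843a-5p (chr12:80391654-80391674, minus strand) lies at bases 78 to 98 of the 139 bases of Scarna3b, and its lowest, median and highest levels were 4804, 5651 and 7434 FPKM in young and 3956, 5173 and 6517 FPKM in aged libraries. miR-1843b-5p (chr1:159340362-159340382, plus strand) lies at bases 80 to 100 of the 140 bases of Scarna3a and also matched Scarna3b exactly, shifted by 1 base. Its levels were 3148, 3270 and 5113 FPKM in young and 3692, 4226 and 5557 FPKM in aged libraries. The pair shared 20 of 21 bases, so their seeds differ by the shift alone, and how reads matching both were divided is not stated. miR-1843a-5p was above miR-1843b-5p in 11 of 12 libraries, and the log2 ratio of a to b was 0.70 ± 0.18 in young and 0.24 ± 0.44 in aged muscle (SD, n = 6 each). The exception was aged replicate 5, which had 10 and 14 reads of the pair.

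miR-1839-5p, from a scaRNA at chr7:81529919-81529940 (plus strand), had 1978, 2815 and 4300 FPKM in young and 2272, 3905 and 4390 FPKM in aged libraries. miR-3068-3p, from a snoRNA in an intron of Alkbh1, averaged 1225 FPKM and its 5p arm 109.2 FPKM. The remaining members of this kind averaged between 14.18 FPKM for miR-3069-5p and 810.3 FPKM for miR-1843b-3p. One further member, miR-1983, lay in an isoleucine tRNA gene, had at most 5 reads in a library and averaged 52.77 FPKM.

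Another group sat at splice sites. For 8 members (6.25%, against 0.457% of the earlier-numbered miRNAs) the hairpin filled a whole annotated intron within 3 bases at each end, the position of a mirtron. These were both arms of miR-7068 in Cherp, both arms of miR-1981 in Marc2, and 1 arm each of miR-6944 in Dbn1, miR-1982 in Oaz1, miR-7091 in Dnase1l1 and miR-7018 in Hspg2. In all, the mature end of 28 members lay within 3 bases of an intron's end, 22.2% of those with coordinates, against 0.748% of the earlier-numbered miRNAs. Of the 28, 26 were 3p arms, and 19 of these 26 ended in AG, the letters of the splice acceptor, against 2 of the 31 other 3p members with a sequence. Among all 341 earlier-numbered 3p sequences of RefSeq, 6.45% ended in AG. Since the 26 were picked for lying at an intron's end, their AG follows from that choice and is no separate evidence. Of these 3p arms, 4 are shown with a final AG in capitals, with the most abundant first.
miR-7068-3p: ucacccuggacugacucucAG
miR-3082-3p: cacauggcacucaacucugcAG
miR-6944-3p: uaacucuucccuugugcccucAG
miR-7035-3p: ucugagccgcugucccugcAG

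miR-7068-3p (chr8:72470016-72470036, minus strand), whose host Cherp encodes an endoplasmic reticulum protein, had the highest level of this group. It had 2721, 4407 and 6427 FPKM at the lowest, median and highest young library and 2385, 4245 and 5793 FPKM in aged libraries, and it was the fifth member by level. Its 5p arm was read in 3 aged libraries only and averaged 16.22 FPKM. By contrast, the arms of miR-1981 were close, at 261.2 FPKM for 5p and 330.9 FPKM for 3p. miR-6944-3p averaged 102.4 FPKM and miR-1982-3p 40.37 FPKM, and the others of the intron-filling group averaged under 10 FPKM.

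The remaining places were exons, other introns and the space outside genes, and most members there had few reads. An annotated exon of any transcript held 31 members, an intron held a further 49, and 15 lay outside annotated genes, while 2 had no coordinates. Their medians were 53.5, 26.7 and 61 FPKM in that order. The exonic and intronic counts include 7 and 13 members whose mature end lay at an intron's end, which were also counted above. Outside genes means only that no annotated exon or intron held the hairpin on its strand. Matches of mature sequences to ribosomal RNA or to the rest of the genome were not searched. miR-6236 at chr9:110281353-110281371 (plus strand), outside genes, was the second member by level, with 4608, 10718 and 17560 FPKM in young and 4240, 6144 and 10809 FPKM in aged libraries. miR-5099, also outside genes, had 2896, 3857 and 6208 FPKM in young and 3566, 4636 and 5442 FPKM in aged libraries. miR-1943-5p, in an intron of Tmem184b, averaged 1916 FPKM. miR-1249-3p averaged 1741 FPKM and ranged from 1296 to 2574 FPKM. miR-3061-3p, in the gene Ppp2ca of a catalytic subunit of protein phosphatase 2A, averaged 942.9 FPKM. miR-3102-3p, at the end of an intron of Arhgef17, averaged 881.7 FPKM, miR-1247-5p in Dio3os 695.1 FPKM and miR-6240 outside genes 542.4 FPKM. miR-1963 at chr7:29083671-29083693 (minus strand), in an intron of Ryr1, which encodes the calcium release channel of skeletal muscle, had 145, 558.7 and 820.3 FPKM in young and 359.5, 557.3 and 989.1 FPKM in aged libraries. The members had a median GC content of 54.5% in the mature sequence, against 45.5% for the earlier-numbered miRNAs, and miR-5126 was 100% G and C.

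**Figure D2:**
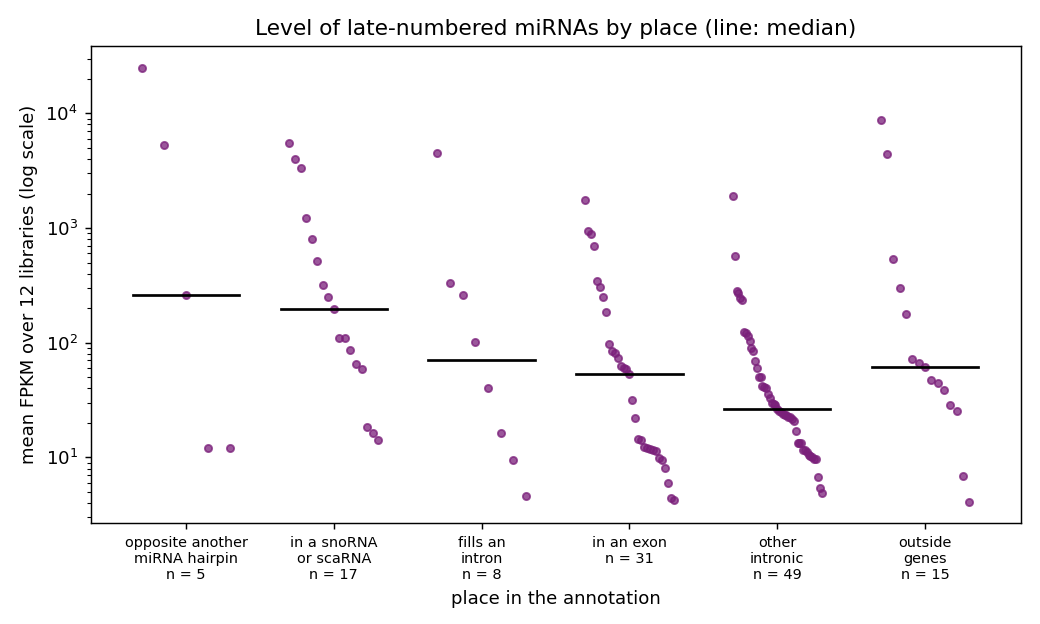
Mean FPKM over 12 libraries (log scale) of the late-numbered miRNAs by their place in the annotation, with 1 point per miRNA, a line at the median and the number of miRNAs under each name. The 17 members in snoRNAs or scaRNAs have a median of 196 FPKM and the 49 other intronic members a median of 26.7 FPKM.

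The number of members that a library showed followed its depth. The reads behind each library, recovered from the steps between low FPKM values, spanned 221785 to 6839860 across young and 126173 to 8133199 across aged libraries, so that 1 read of a 22-nucleotide miRNA was worth between 5.855 and 377.4 FPKM. Each group had 1 library far deeper than the rest, young replicate 6 and aged replicate 3. Without them the young libraries held at most 637352 reads, and 4 of the other 5 aged libraries held at least 1288888. Members above 0 numbered 44 to 117 in young libraries and 36 to 119 in aged libraries, with means of 67.7 ± 26.4 and 84.3 ± 27.4 (SD, n = 6 each). The lowest number was in the shallowest library, aged replicate 5, and the highest in the deepest, aged replicate 3. When every library was taken down to the depth of the shallowest, by the expected number of members with a read left, the means were 33.4 ± 2.76 in young and 33.5 ± 2.08 in aged muscle.

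Only 22 members were above 0 in all 12 libraries. Of these, the coefficient of variation over libraries ran from 19.2% for miR-1843b-5p to 60.8% for miR-3057-5p, with a median of 33.1%. The deepest young and the deepest aged library together showed all but 1 of the 128. In 43 members no library held more than 3 reads, and 53 reached at least 10 reads in some library. At the edge of the rule, the 23 members above 0 in exactly 3 libraries averaged between 4.12 and 26.7 FPKM, and the 53 late-numbered miRNAs just outside it, above 0 in 2 libraries, averaged between 0.976 and 42.1 FPKM. Of the members, 1 was read in young libraries only and 3 in aged libraries only. Among the 53 just outside the rule these counts were 0 and 15. The young libraries held 8956761 reads in sum and the aged ones 14118541, and the counts were not tested between the ages.

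**Figure D3:**
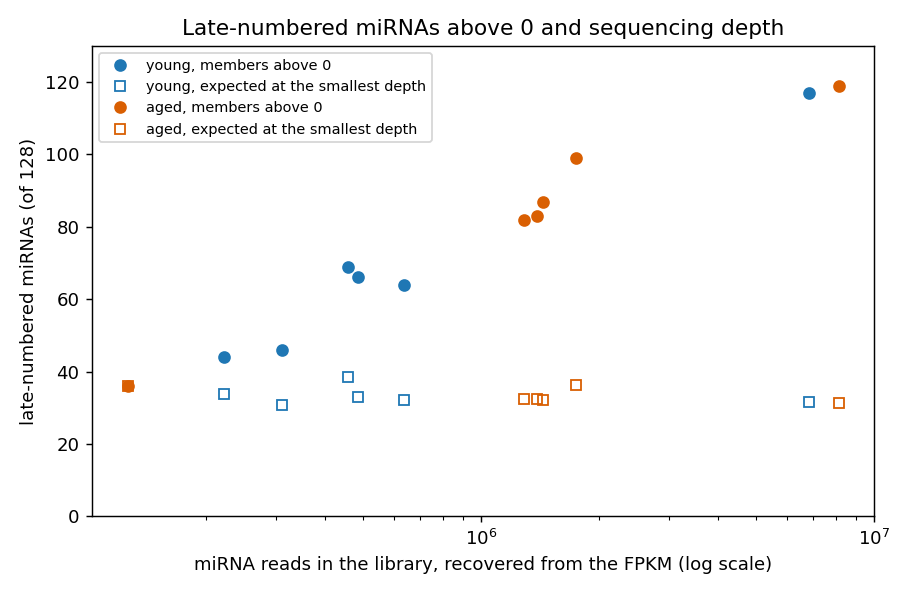
Number of the 128 late-numbered miRNAs above 0 (filled points) in each library against the recovered miRNA reads of the library (log scale), and the number expected at the smallest depth (open squares), for 6 young and 6 aged libraries. The filled points climb from 36 to 119 with depth, while the open squares stay between 30.7 and 38.5.

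Between the ages, no late-numbered miRNA passed the test. Levels were compared by limma on log2(FPKM + 48.2) over all 482 miRNAs above 0 in at least 5 libraries, which took in 89 of the 128 members. The filter used no age label, but a member that passed it did so through its reads. None of the 89 had a Benjamini-Hochberg adjusted p under 0.05, where 14 of the 482 (2.90%) did, and the smallest adjusted p of a member was 0.0775. By unadjusted p under 0.05 there were 5 members (5.62%), 2 higher and 3 lower in aged muscle. Over all miRNAs tested, 62 (12.9%) had an unadjusted p under 0.05, 5.60% of all higher and 7.26% of all lower in aged muscle, so the members' share was below that of the table. The 128 members also had fewer reads, with a median highest count of 6.5 in a library, against 48 for the 438 earlier-numbered miRNAs. Whether this lowered their share was not tested. limma voom on the recovered reads gave 0 members by adjusted p and 7 by unadjusted p, where 3.32% and 13.9% of all miRNAs tested passed. The exact permutation test of each miRNA gave 0 members and 0 of all 482 miRNAs by adjusted p, so it says nothing about the members, and 3 members by unadjusted p, where 13.7% of all passed. For 0 of the 89 members the young and aged values did not overlap, against 2.70% of all miRNAs tested. The median log2 change of the members was 0.15, with 53 higher and 36 lower in aged muscle, and 0.07 over all miRNAs tested. With voom the medians were -0.14 and -0.07, and 35 members were higher and 54 lower. With depth as a covariate they were 0.03 and 0.01, with 47 members higher and 42 lower. Without both deepest libraries they were 0.12 and 0.06, with 53 members higher and 36 lower. The pseudocount moved the members' median to 0.46 at 1 FPKM, with 63 higher and 26 lower, and to 0.01 when it was 10 times as large, with 46 higher and 43 lower.

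**Figure D4:**
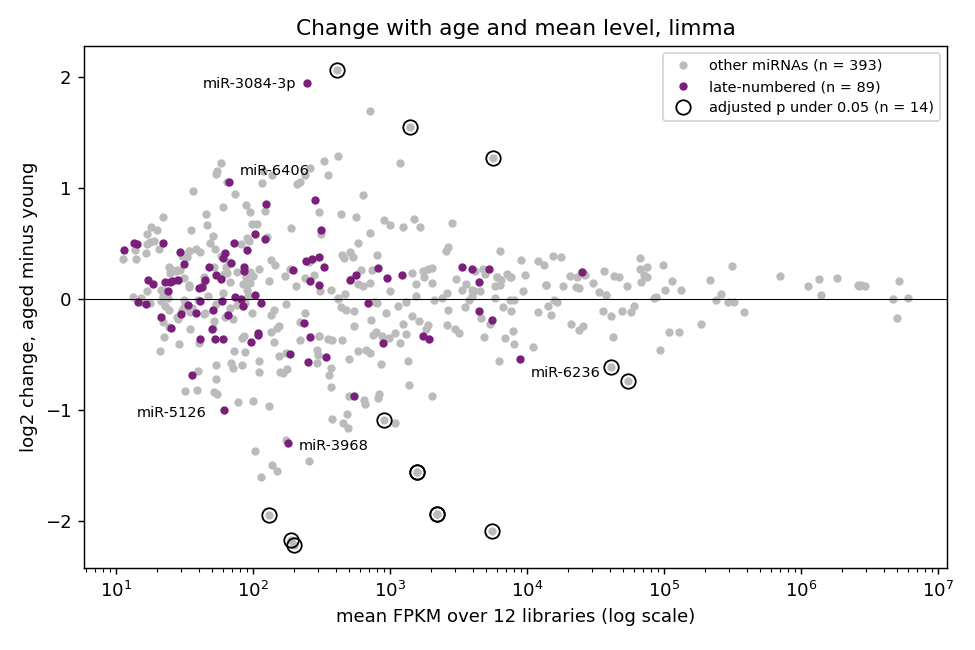
Log2 change from young to aged muscle (limma, vertical axis) against mean FPKM (log scale) for 482 miRNAs, with the 89 late-numbered miRNAs in purple, the others in grey and rings around the 14 with an adjusted p under 0.05. None of the rings is around a late-numbered miRNA, and the 5 named members are those with an unadjusted p under 0.05.

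miR-3084-3p, which lies in a snoRNA in the gene Cbwd1 at chr19:24942240-24942260 (minus strand) and has a second copy, came closest. It was read in 3 of 6 young libraries, with 0, 51.27 and 327.4 FPKM at the lowest, median and highest, and in 6 of 6 aged libraries, with 244.4, 321.7 and 792.4 FPKM. All 6 aged values were above the young median, and the highest young value, of 3 reads in young replicate 5, lay among the aged ones. On the log2(FPKM + 48.2) scale the difference was 1.94 ± 0.58 (SE, adjusted p = 0.0775 by limma). Over the alternatives the adjusted p ran from 0.0364, without young replicate 5, to 0.222, with a pseudocount of 1. The log2 difference ran from 0.58, with a pseudocount 10 times as large, to 4.73, with a pseudocount of 1, so its size depended on that choice. With depth as a covariate the difference was 1.88 (adjusted p = 0.126, limma), and without both deepest libraries it was 2.22 (adjusted p = 0.102, limma).

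The reads behind this value were few in young muscle. Summed over libraries, miR-3084-3p had 31 reads in young and 91 in aged muscle, or 3.46 RPM (2.35 to 4.91) and 6.45 RPM (5.19 to 7.91), where RPM are reads scaled to 1000000 reads of the same libraries and the ranges are exact 95% Poisson intervals that cover counting error only. Of the 31 young reads, 27 came from young replicate 6. In the deepest library of each group its level was 197.4 FPKM in young and 319.7 FPKM in aged muscle. The 3 young libraries with no read held between 221785 and 637352 reads. Without both deepest libraries the summed reads came to 1.89 RPM (0.515 to 4.84) in young, from 4 reads, and 6.52 RPM (4.63 to 8.91) in aged muscle. The 5p arm of the same hairpin, miR-3084-5p, had 19 reads in young and 24 in aged muscle, at mean levels of 86.08 and 86.85 FPKM.

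The other 4 members with an unadjusted p under 0.05 all lay outside annotated genes, while matches to ribosomal RNA were not searched. Of these 4, miR-6236 had the most reads, and as given above its aged median was below its young one. 5 of 6 aged libraries were below the young median, while the groups overlapped, and the log2 difference was -0.54 ± 0.25 (SE, adjusted p = 0.344 by limma). Summed over libraries it had 226 RPM in young (217 to 236) and 117 in aged muscle (112 to 123). Without both deepest libraries the values were 173 (156 to 192) and 128 (119 to 137) RPM.

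miR-6406 (chr11:68220917-68220938, plus strand) showed opposite directions on different scales. It was read in 2 of 6 young libraries, with 0, 0 and 74.54 FPKM at the lowest, median and highest, and in 6 of 6 aged libraries, with 17.51, 70.14 and 377.4 FPKM. The highest aged value was 1 read in the shallowest library, aged replicate 5. The fitted log2 difference was 1.05 ± 0.46 (SE, adjusted p = 0.32 by limma), and with voom on the recovered reads it was -0.23. Summed over libraries it had 8 reads in young and 13 in aged muscle, or 0.893 (0.386 to 1.76) and 0.921 (0.49 to 1.57) RPM. In the deepest library of each group there were 7 young and 3 aged reads, and without both the values were 0.472 (0.012 to 2.63) and 1.67 (0.801 to 3.07) RPM.

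miR-3968 (chr11:115447969-115447989, minus strand) and miR-5126 (chr1:84695890-84695911, plus strand) had lower fitted levels in aged muscle, and neither passed the adjusted test. miR-3968 was read in 6 of 6 young libraries, with 80.45, 182.4 and 448.8 FPKM, and in 3 of 6 aged libraries, with 0, 46.21 and 396.2 FPKM, a log2 difference of -1.29 ± 0.60 (SE, adjusted p = 0.348 by limma). Both groups had 22 reads in all, or 2.46 (1.54 to 3.72) RPM in young and 1.56 (0.977 to 2.36) in aged muscle. Without both deepest libraries the values were 5.2 (2.59 to 9.3) RPM from 11 young reads and 1.17 (0.47 to 2.41) RPM from 7 aged reads. miR-5126 was read in 4 young libraries, with 0, 101.2 and 213.8 FPKM, and in 2 aged libraries, with 0, 0 and 66.26 FPKM, a log2 difference of -1.0 ± 0.48 (SE, adjusted p = 0.365 by limma). It had 19 young and 9 aged reads, or 2.12 (1.28 to 3.31) and 0.637 (0.291 to 1.21) RPM, and without both deepest libraries 1.89 (0.515 to 4.84) and 0.334 (0.0405 to 1.21) RPM. For both, the groups overlapped. The remaining members among the smallest p-values, all with an unadjusted p of 0.05 or more, included miR-1968-5p in Grtp1, with 0, 78.69 and 184.8 FPKM in young and 60.55, 129.4 and 344.9 FPKM in aged libraries, a log2 difference of 0.85 ± 0.53 (SE, adjusted p = 0.494 by limma) that was -0.01 with voom. miR-2137 in Zfp185, with at most 7 reads in a library, had 0, 25.63 and 224.4 FPKM in young and 0, 0 and 36 FPKM in aged libraries, a log2 difference of -0.69 ± 0.42 (SE, adjusted p = 0.494 by limma).

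**Figure D5:**
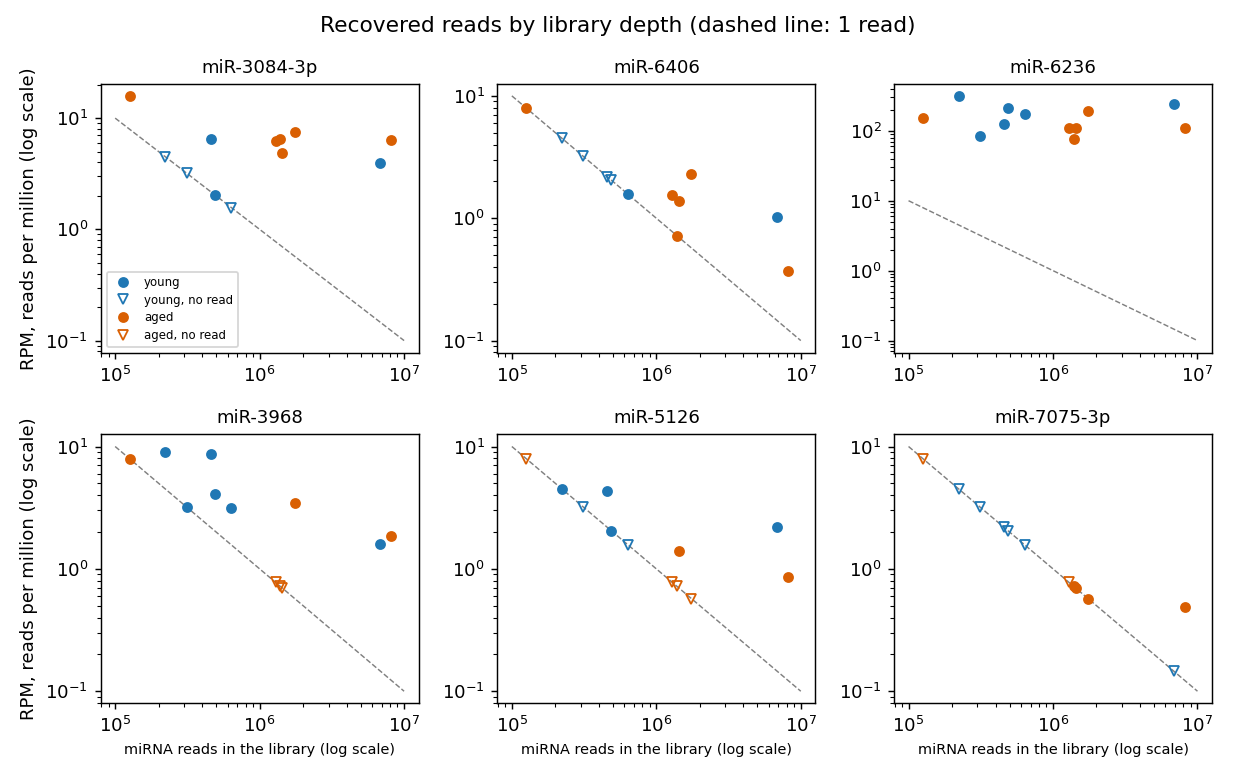
Recovered RPM (log scale) against the depth of the library (log scale) for the 5 members with an unadjusted p under 0.05 and for miR-7075-3p, in 6 young and 6 aged libraries. The dashed line marks 1 read and open triangles on it stand for libraries with no read, and the shallow libraries of every member but miR-6236 lie on that line or near it.

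The study's list of changed miRNAs holds 4 members, and since it was drawn from these libraries, it is no independent evidence of a direction. miR-3084-3p and miR-6406 are described above. miR-7083-5p, in an intron of Dock6, was read in 1 young and 4 aged libraries, with at most 3 reads in any, so no fold change is given. Its adjusted p was 0.476 by limma. miR-7075-3p, in an intron of the telomere protein gene Terf2, was read in no young library and in 4 aged libraries, with 28.64, 34.78, 24.59 and 36 FPKM in aged replicates 1, 2, 3 and 6. It was too rare for the fit. Of its 7 reads, 4 came from the deepest aged library, while young replicate 6, with 6839860 reads, held none. By the exact Poisson interval, the 0 of 8956761 young reads allow up to 0.412 RPM, or up to 1.74 RPM without young replicate 6, and the 7 aged reads correspond to 0.496 (0.199 to 1.02) RPM.

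None of the abundant members passed the test between the ages. For the 22 members read in all libraries the log2 changes ran from -0.54 to 0.62, with 13 higher and 9 lower, and the smallest adjusted p was 0.344 by limma. miR-3074-5p, whose values are those of miR-24-3p, differed by 0.24 ± 0.14 (SE, adjusted p = 0.461, limma). miR-1943-5p had 1641, 2101 and 2916 FPKM in young and 1438, 1536 and 2165 FPKM in aged libraries, and differed by -0.36 ± 0.22 (SE, adjusted p = 0.489, limma). Of the members in snoRNAs or scaRNAs, 11 were higher and 6 lower in aged muscle with a median change of 0.22. Only miR-3084-3p of these 17 (5.88%) had an unadjusted p under 0.05, against 12.9% of all miRNAs tested. Of the 5 intron-filling members tested, 3 were higher and 2 lower, between -0.35 and 0.29. Of the 12 tested from outside genes, 4 (33.3%) had an unadjusted p under 0.05, against 12.9% of all miRNAs tested. They were those named above, and miR-6406, miR-3968 and miR-5126 had at most 7, 15 and 15 reads in a library. No test was made of whether the groups by place differ from each other.

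The balance of the arms of a hairpin was compared where both arms were members. There were 13 such hairpins among 130 in which each arm was read in 5 or more libraries. The 5p arm was the higher by mean level in 8, by 28.1-fold for miR-1843a, and the 3p arm in 5, by 11.2-fold for miR-3068. For miR-1943 no fold is given, since no library held more than 3 reads of its 3p arm. In 7 hairpins the same arm was higher in all 12 libraries. It was 5p for miR-1247, miR-1839, miR-1843a, miR-1843b and miR-1943, and 3p for miR-3061 and miR-3068. None of the 13 changed with age by limma on the log2 ratio of 5p to 3p, with an adjusted p of at least 0.425 and 0 with an unadjusted p under 0.05, where 0.769% of all 130 were called by adjusted and 13.1% had an unadjusted p under 0.05. The ratio was lower in aged muscle in 12 of the 13, with a median change of -0.44. Over all hairpins it was lower in 67 of 130, with a median change of -0.01. The hairpins share the same 12 libraries, so they are not independent, and the set was not tested. Some lower arms had few reads, such as miR-1943-3p with at most 3 in a library, and there the ratio rests on the pseudocount. The change closest to the threshold was that of miR-3084, from -0.09 ± 1.79 in young to -1.75 ± 1.24 in aged muscle (SD, n = 6 each), a change of -1.66 ± 0.83 (SE, adjusted p = 0.425, limma).

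The libraries carried the miRNAs of their labelled tissue. The summed level of 6 muscle miRNAs, miR-1a-3p, miR-133a-3p, miR-133b-3p, miR-206-3p, miR-208b-3p and miR-499-5p, lay between 4497092 and 7378806 FPKM. Both arms of miR-126a, a miRNA of endothelium, summed to between 307743 and 455685 FPKM. Red blood cell miRNAs (miR-451a and both arms of miR-144) summed to between 3022 and 10507 FPKM, and 4 white blood cell miRNAs to between 8449 and 24904 FPKM. Neuron miRNAs (miR-124-3p and miR-9-5p) summed to at most 888 FPKM. Liver miR-122-5p was at 0 in all young libraries and reached 34.3 FPKM in aged ones. These ranges overlapped between the ages, and fewer cells of a type and less RNA per cell cannot be told apart in whole muscle.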

How the data were processed

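Per the study's methods, adaptor sequence was removed, BWA placed the reads on mm10, and the authors turned read numbers for the mature miRNAs in miRBase into FPKM and took log2. The submitters' notes also name TopHat2. The deposited values are log2 of FPKM, with 0 for no read. Use of strand and the assignment of reads that match several places are not given in the sources used here. All sample columns were used.

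The log2 was undone and genomic copies of a miRNA were summed, which affected 5 members. Whole reads were recovered from the steps between low values: 99.2% of 2993 values lay within 0.1 of a whole read, with length less 1 as the divisor. Before log2, a pseudocount of 48.2 FPKM was added, which is the smallest nonzero value of a library, taken as the median of the 12. limma 3.58.1 (lmFit, eBayes with trend, R 4.3.3) compared 6 aged with 6 young libraries without covariates, two-sided, over 482 miRNAs above 0 in at least 5 libraries, with Benjamini-Hochberg adjustment over all of them. The balance of arms, 5p over 3p with the pseudocount in both, was fitted in the same way. The limma fit of levels was tested on simulated data, and the other fits were not. Recovery of set changes was required there only for miRNAs averaging at least 482 FPKM, where the members' median was 43.3 FPKM. No fold is given where every library held 3 reads or fewer. Hosts and places came from GENCODE M21, sequences from RefSeq (GRCm38.p6), both on the mm10 assembly. Python 3.11.15, pandas 2.3.3, NumPy 2.4.6 and SciPy 1.17.1 were used.

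Alternatives were other pseudocounts, filters, scalings, a replicate block, depth as a covariate, voom, exact permutation and each library left out. The text names the 20 most abundant members, the 5 smallest p-values in each direction with more than 3 reads in a library, members called in any fit, those on the study's list, and examples of opposite strands, shared seeds, both arms, and snoRNA and intron positions. The members and lists were chosen with earlier results of these data known.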

Additional observations from a re-analysis of the deposited data

Results flagged for a closer look

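Values of the named miRNAs that passed the filter, of the number of members above 0, of the same number expected at the shallowest depth and of the share of summed FPKM were searched for a library standing apart from the other 5 of its group. A library stood apart when its gap to the nearest one, as a share of the group's range, passed Dixon's 95% critical value. Chance gives this in about 1 in 20 groups of normally distributed values. The values here have ties at no read and read steps that differ between libraries, so that share need not hold. Of 60 groups of 6 libraries searched, 5 held such a library. For normally distributed values 3 would be the share of chance, and no conclusion is drawn from the difference. Young replicate 6, the deepest young library, showed 117 members above 0, and the remaining young libraries showed 44 to 69. At the shallowest depth its expected number was 31.7, where the young libraries ran from 30.7 to 38.5. The same library held the only young read of miR-7083-5p, at 5.80 on the log2(FPKM + 48.2) scale, where the others were at 5.59, the value of no read. A group with only 1 library above 0 passes this rule by construction. Aged replicate 5, the shallowest library, gave the other 3, all on the same scale. Its miR-1843b-5p, from 14 reads, was at 12.45 where the remaining aged libraries spanned 11.87 to 12.07. Its miR-6240 was at 5.59, the value of no read, and the remaining ones spanned 8.60 to 9.47. Its miR-3084-3p, from 2 reads, was at 9.72, and the remaining ones spanned 8.19 to 8.72. The cause was not tested for any of them.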

How the results depend on the processing

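In the shallowest library 1 read was worth 377.4 FPKM, above the mean level of most members, and a missing read there is no evidence of absence. The table gives FPKM to 2 decimals of log2, so recovered reads of abundant miRNAs are approximate. All p-values measure the spread between libraries, with 1 library per animal. That spread holds both counting error and differences between animals, and the tests do not separate them.

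The count of members with an adjusted p under 0.05 was 0 in all settings but 1, leaving out young replicate 5, where miR-3084-3p was called (adjusted p = 0.0364, limma). With each library left out in turn it ran from 0 to 1, and for the arm balance it was 0 throughout. By unadjusted p the count was 5. It was 2 with a pseudocount 10 times as large, 2 with quantile normalization, 3 by the exact permutation test, whose smallest possible p of 0.00216 is not small against the adjustment over 482 miRNAs, 8 with a filter of 3 libraries, and from 1 (without young replicate 2) to 4 with a library left out. Leaving out both deepest libraries, an alternative chosen after seeing the data, gave 4. The replicate numbers of young and aged libraries did not pair the animals, since deviations of same-numbered libraries correlated between -0.0943 and 0.0949 and 0 of 6 libraries correlated best with their own number. With a replicate block the counts were 0 and 4.

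Of 648 log2 changes of 26 named miRNAs under 25 alternatives, 636 kept direction and side of the threshold. The sign turned for 8 miRNAs, none of them called. miR-1247-5p gave 0.05 with quantile normalization and -0.23 to 0.12 with a library left out. With voom, miR-1981-3p gave -0.22, miR-6406 -0.23 and miR-1968-5p -0.01. With a library left out, miR-7068-3p ranged from -0.25 to 0.05, miR-3061-3p from -0.01 to 0.34, miR-1963 from -0.07 to 0.36 and miR-3535 from -0.05 to 0.38. The cause was not tested. The difference in members above 0 per library, aged less young, was 16.7, and ran from 9.73 without aged replicate 3 to 26.5 without young replicate 6. A pseudocount of 1 FPKM moved the median log2 change of all miRNAs from 0.07 to 0.18 and that of the members from 0.15 to 0.46.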

Other observations

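The members fell unevenly over the number range. By the first of the 4 digits, numbers that start with 1 held 33 members with a median level of 123 FPKM, those with 2 or 3 held 31 with 72.4 FPKM, those with 4 or 5 held 10 with 23.4 FPKM, and those with 6 to 9 held 54 with 25.4 FPKM. The last of these blocks contained 42.2% of the members and 20.5% of their summed mean FPKM, most of it from miR-6236 and miR-7068-3p. Of the 22 members read in all libraries, 10 had numbers that start with 1 and 3 had numbers that start with 6 to 9.

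Of the 117 members with a sequence, 15 shared their seed with another miRNA of the table, of late or earlier number. The 117 members with a sequence had 116 distinct seeds, and the pair of members with the same seed was miR-7068-3p, at 4490 FPKM, and miR-7018-3p, at 4.641 FPKM. Both are 3p arms of intron-filling hairpins, in Cherp and Hspg2. With earlier-numbered miRNAs 4 members shared a seed. miR-6240 averaged 542.4 FPKM and miR-330-3p, with the same seed, 46.64 FPKM. miR-3473d averaged 68.72 FPKM and miR-674-5p 64.46 FPKM. miR-149-3p, with the seed of miR-1943-5p, was at 0 in all libraries, and miR-412-3p, with the seed of miR-1983, was above 0 in 1 library.
miR-7068-3p: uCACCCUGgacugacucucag
miR-7018-3p: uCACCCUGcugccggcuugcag
miR-6240: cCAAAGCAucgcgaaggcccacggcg
miR-330-3p: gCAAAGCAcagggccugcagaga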
